A study of Mus musculus with 8 samples.

Results

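This account covers genes of the decidua, the uterine lining in which a mouse embryo implants, together with a small group of myeloid genes, as read in single whole embryos. The members are the rows of the deposited table whose gene symbol is one of 34 names on a list, and the rule itself uses no measured value. Of the 34 names, 33 were rows of the table, which holds 21182 gene symbols, and Col6a3 was not analysed here. The values are RPKM, in which the authors scaled reads by gene length (per kilobase) and by sequencing (per 1000000 reads). RNA was sequenced from 4 embryos labelled Tet1/2/3 TKO and 4 labelled Control. All were whole C57BL/6 embryos collected at stage E6.75 and lysed singly, and the labels name no litter, sex, batch or breeding scheme. The TKO label stands for a triple knockout of the methylcytosine dioxygenases Tet1, Tet2 and Tet3. The submitters' descriptions also mark the Control embryos WT, read here as wild type for these enzymes. The study asks what losing these enzymes does to embryonic transcripts, and the genes described here were listed as a measure of uterine tissue in each embryo sample.

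After implantation, fibroblasts of the uterine stroma turn into large decidual cells that surround the embryo, a step that needs progesterone and its receptor. Bone morphogenetic protein and Wnt signals, with the transcription factor C/EBP-beta, carry this change forward in the mouse, and decidual cells come to make prolactin-related hormones, desmin and a collagen-rich matrix. Leukocytes, above all natural killer cells, and blood vessels share the same tissue. An embryo at this stage has to be peeled out of the decidua, so its outer surface can keep maternal cells.

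The reads behind each embryo were estimated at 9.90 to 18.96 M in TKO-labelled and 12.37 to 16.43 M in Control embryos, where M is 1000000. At these totals 1 read on a 2 kb gene model is worth 0.0264 to 0.0505 RPKM, so members listed below 0.1 RPKM rest on very few reads. Tet1 averaged 11.4 ± 2.82 RPKM in TKO-labelled and 5.24 ± 0.370 RPKM in Control embryos (SD, n = 4 each), and each TKO-labelled value lay above each Control value. Its log2 difference of 0.97 missed the threshold (limma adjusted p = 0.103), but passed it without TKO-labelled replicate 1 (0.83, limma adjusted p = 0.0306). Tet2 and Tet3 averaged 0.784 and 1.38 RPKM in TKO-labelled embryos, against 0.725 and 1.85 RPKM in Control embryos (exact permutation p = 0.657 for Tet2, limma adjusted p = 0.297 for Tet3). All TKO-labelled Tet3 values, at 1.14 to 1.68 RPKM, lay below all Control values, at 1.73 to 2.08 RPKM (exact permutation p = 0.0286), the direction its label says. The transcript level of Tet1 thus goes against its label, although 1 value per gene cannot show missing exons, and the embryos are called TKO-labelled for this reason. Each direction below rests on that label.

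The name decidual stroma was checked against decidual genes that are not members. Prl8a2, a prolactin-family hormone made by decidual cells, stood at 21.3, 11.8, 354 and 45.2 RPKM in the TKO-labelled embryos and 174, 1.32, 336 and 209.8 RPKM in the Control embryos, in order of replicate. Embryos with little and embryos with much of this transcript occurred under both labels, and the groups overlapped. Prl3c1, another prolactin-family gene of the decidua, stood at 0.325, 0.455, 27.6 and 2.29 RPKM in TKO-labelled replicates 1 to 4, against 10.9, 0.288, 46.6 and 13.5 RPKM in Control replicates 1 to 4. Close paralogs of the prolactin family can share reads, so these levels carry that doubt. The uterine homeobox gene Hoxa10, named here after its values were seen, ranged over 0.0670 to 3.78 RPKM in TKO-labelled and 0.0850 to 12.5 RPKM in Control embryos. Of the 14 other decidual genes 10 had lower and 4 higher means in TKO-labelled embryos, and 8 were highest in Control replicate 3. Some did not share this pattern. Foxo1, a transcription factor that also acts in decidual cells, stood at 8.33 to 9.27 RPKM in TKO-labelled and 6.06 to 7.62 RPKM in Control embryos, with all TKO-labelled above all Control values (limma adjusted p = 0.273). The steroid-responsive genes Klf9 and Fkbp5 varied little, Klf9 over 9.13 to 12.3 RPKM in TKO-labelled and 8.37 to 12.9 RPKM in Control embryos and Fkbp5 over 9.83 to 11.7 RPKM in TKO-labelled and 10.4 to 12.0 RPKM in Control embryos. For neutrophils the defining genes were near 0. Of 15 other granulocyte markers 13 lay below 1 RPKM in every embryo, and the granule protein genes Ngp, Camp, Elane and Mpo, picked out here as defining ones, reached at most 0.174 RPKM. The exceptions were Mmp9, a secreted gelatinase, and the chemokine receptor gene Cxcr2, at 19.5 to 55.9 RPKM in TKO-labelled and 21.3 to 37.5 RPKM in Control embryos. Prtn3, another granule protease gene, stood at 0 to 0.270 RPKM in TKO-labelled and 0.345 to 0.998 RPKM in Control embryos. It was the 1 gene of this list whose groups did not overlap (exact permutation p = 0.0286). All TKO-labelled values lay below all Control values in 1.71% of the genes above 0. S100a8, S100a9 and Lyz2 are therefore called myeloid genes below, and no neutrophil content is read from them.

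Most of the 33 members varied widely between embryos of the same group. In 22 of them the highest of the 8 values was that of Control replicate 3, against 6.98% of the 10451 genes that reached at least 1 RPKM in at least 4 embryos, and 21.3% of the 20714 genes above 0 in any embryo. Control replicate 3 also had the fewest genes at 0, with 2186, against 3227 to 4942 in the other embryos. Genes below the filter were thus more often highest there than the genes tested, and 13 of the members are below the filter. The lowest value, ties included, was that of Control replicate 2 in 14 members and of TKO-labelled replicate 2 in 9. In TKO-labelled replicates 1 to 4, 14, 13, 22 and 19 members reached 1 RPKM, against 19, 9, 27 and 24 in Control replicates 1 to 4. High and low embryos thus occurred under both labels. The SD between embryos of log2(RPKM + 1) had a median over the 33 members of 0.40 in TKO-labelled and 0.63 in Control embryos, against 0.20 and 0.18 over the genes tested. TKO-labelled replicate 3, with the most members at 1 RPKM in its group, had the most estimated reads of its group (18.96 M), whereas Control replicate 3 had the fewest of its group (12.37 M). The part of depth in the member levels was not tested. In whole embryos, fewer cells of a type and less RNA per cell cannot be told apart.

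**Figure D1:**
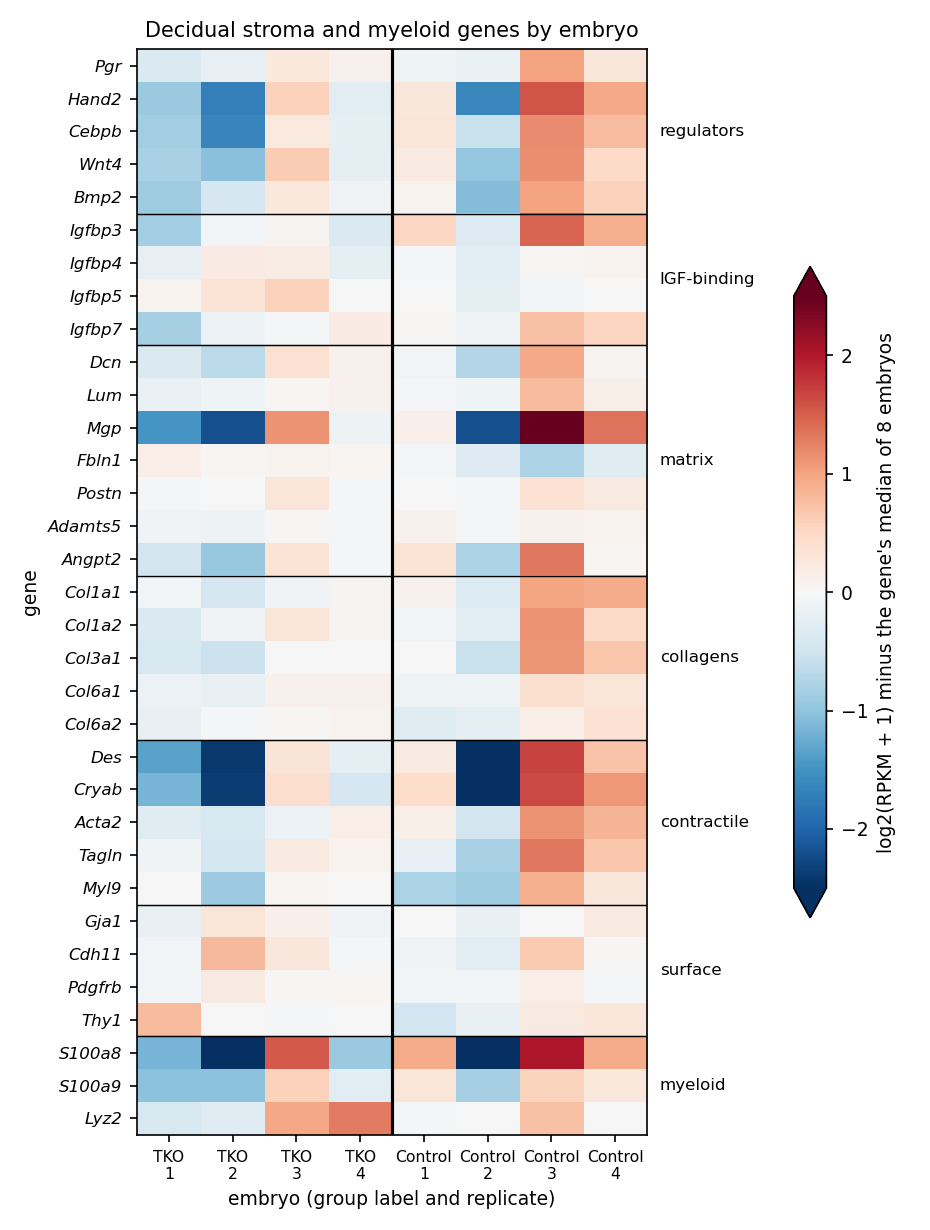
Level of the 33 genes in each embryo, as log2(RPKM + 1) minus the gene's median over the 8 embryos, with TKO-labelled embryos left of the line, Control embryos right of it, and genes grouped by role. Control replicate 3 is the darkest red column, with the highest value in 22 genes, and replicate 2 of both groups is blue in most of the regulator, matrix and contractile rows.

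All 5 regulators of decidual change were highest in replicate 3 of each group, while the lowest TKO-labelled embryo was replicate 1 for Pgr and Bmp2 and replicate 2 for Hand2, Wnt4 and Cebpb. Pgr encodes the progesterone receptor, on which decidual change depends. It stood at 0.234, 0.378, 0.897 and 0.716 RPKM in the TKO-labelled embryos and 0.474, 0.417, 2.19 and 0.939 RPKM in the Control embryos, in order of replicate. It reached 1 RPKM only in Control replicate 3, and the groups overlapped (exact permutation p = 0.400). Hand2, a transcription factor of the uterine stroma that acts under progesterone, stood at 0.721, 0, 3.87 and 1.68 RPKM in TKO-labelled replicates 1 to 4, against 3.00, 0.0600, 8.67 and 5.32 RPKM in Control replicates 1 to 4. It was at or near 0 in replicate 2 of either group and highest in Control replicates 3 and 4, and the log2 difference was -0.88 (95% confidence interval -2.31 to 0.54, limma adjusted p = 0.498). Wnt4, a Wnt ligand of decidualising stroma, ranged over 0 to 2.24 RPKM in TKO-labelled and 0.0610 to 3.64 RPKM in Control embryos, with its highest 2 values in the replicates 3.

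Bmp2 and Cebpb kept a level of over 1 RPKM in every embryo. Bmp2 encodes a bone morphogenetic protein that the decidua needs and that visceral endoderm of the embryo also makes. Its values were 2.92, 4.45, 7.73 and 5.82 RPKM in the TKO-labelled embryos and 6.76, 2.44, 13.7 and 9.87 RPKM in the Control embryos, in order of replicate. The groups overlapped, Control replicate 2 was the lowest of all 8, and the log2 difference was -0.44 (95% confidence interval -1.32 to 0.45, limma adjusted p = 0.593). Cebpb, which encodes C/EBP-beta, stood at 2.88, 1.26, 7.49 and 4.98 RPKM in TKO-labelled replicates 1 to 4, against 7.80, 3.82, 15.1 and 11.1 RPKM in Control replicates 1 to 4. Its lowest 2 values were those of TKO-labelled replicates 2 and 1, and 1 Control embryo, replicate 2, lay within the TKO-labelled range. It averaged 4.15 ± 2.69 RPKM in TKO-labelled and 9.45 ± 4.78 RPKM in Control embryos (SD, n = 4 each), and its log2 difference was -1.05 (SE 0.43, limma adjusted p = 0.247), with an unadjusted p of 0.0329. All 5 regulators had a lower mean in TKO-labelled embryos and 0 of the 4 tested passed the threshold. These genes are shown beside matrix and myeloid genes in the plot of levels in each embryo.

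**Figure D2:**
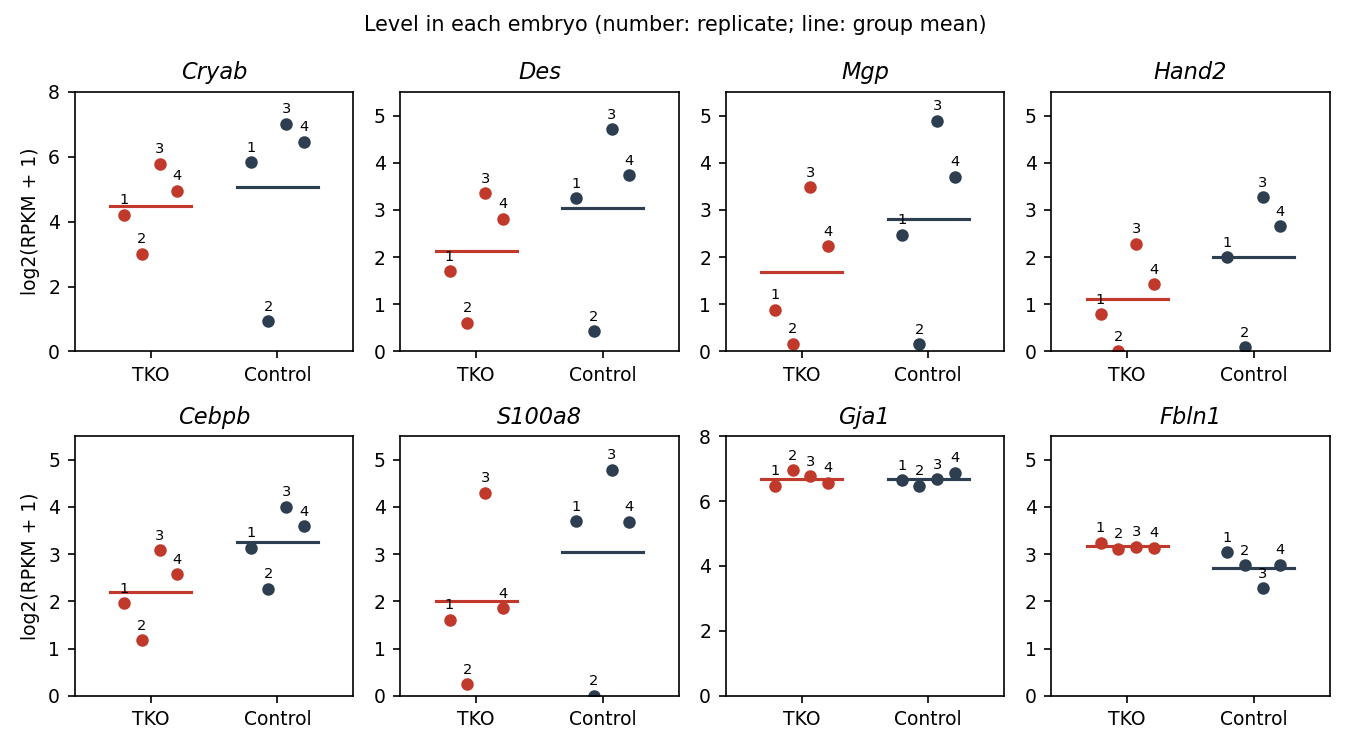
Log2(RPKM + 1) of 8 members in the 4 TKO-labelled embryos, left in each panel, and the 4 Control embryos, right, with the replicate number above each point and a line at the group mean. Cryab, Des, Mgp, Hand2 and S100a8 spread over more than 2 log2 units within each group, while Gja1 and Fbln1 stay within a narrow band.

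The insulin-like growth factor binding proteins, which hold these growth factors outside the cell, did not behave as 1 group. Igfbp3, the main carrier of insulin-like growth factors in blood, stood at 2.56, 5.19, 5.82 and 4.04 RPKM in the TKO-labelled embryos and 8.33, 4.16, 16.9 and 11.1 RPKM in the Control embryos, in order of replicate. Control replicates 1, 3 and 4 were above all TKO-labelled embryos, and Control replicate 2 was below the highest 2 TKO-labelled embryos. Igfbp3 averaged 4.40 ± 1.43 RPKM in TKO-labelled and 10.1 ± 5.33 RPKM in Control embryos (SD, n = 4 each), and its log2 difference was -0.95 (95% confidence interval -1.69 to -0.20, limma adjusted p = 0.215), with an unadjusted p of 0.0177. Igfbp7, a secreted protein of vessels and stroma, stood at 1.91, 3.71, 4.06 and 4.98 RPKM in TKO-labelled replicates 1 to 4, against 4.34, 3.91, 7.66 and 6.53 RPKM in Control replicates 1 to 4, again highest in Control replicates 3 and 4, and the log2 difference was -0.51 (95% confidence interval -1.05 to 0.029, limma adjusted p = 0.312). Igfbp4 stood at 13.5, 18.1, 17.8 and 13.1 RPKM in the TKO-labelled embryos and 15.2, 12.8, 16.0 and 16.6 RPKM in the Control embryos, in order of replicate. Its highest value was only 1.41 times its lowest, its lowest embryo, Control replicate 2, still reached 12.8 RPKM, and its log2 difference was 0.032 (95% confidence interval -0.27 to 0.34, limma adjusted p = 0.924). The sign of that difference turned under median-ratio scaling (-0.049). Igfbp5, a binding protein also held in the matrix, stood at 1.55, 2.04, 2.57 and 1.37 RPKM in TKO-labelled replicates 1 to 4, against 1.40, 1.02, 1.29 and 1.39 RPKM in Control replicates 1 to 4. Its highest 3 values were those of TKO-labelled replicates 3, 2 and 1, and its log2 difference was 0.33 (95% confidence interval -0.0083 to 0.66, limma adjusted p = 0.298). Thus 2 of these 4 genes had lower and 2 higher means in TKO-labelled embryos, and 0 passed the threshold.

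Among matrix and secreted proteins, Mgp varied most. Mgp encodes matrix Gla protein, an inhibitor of calcification made by smooth muscle and stroma. It stood at 0.841, 0.118, 10.1 and 3.69 RPKM in the TKO-labelled embryos and 4.54, 0.112, 28.7 and 12.1 RPKM in the Control embryos, in order of replicate. Its highest value was 257 times its lowest, both in Control embryos. The lowest, in Control replicate 2, rests on few reads, as 1 read on a 2 kb gene model is worth 0.0335 RPKM there. That factor is therefore rough. The log2 difference of Mgp was -1.12 (95% confidence interval -3.22 to 0.98, limma adjusted p = 0.560). Dcn, the collagen-binding proteoglycan decorin, ranged over 0.507 to 2.11 RPKM in TKO-labelled and 0.449 to 3.61 RPKM in Control embryos. Angpt2, an angiopoietin that loosens vessel walls, ranged over 0.114 to 1.74 RPKM in TKO-labelled and 0.243 to 4.33 RPKM in Control embryos. Both were highest in Control replicate 3. The proteoglycan gene Lum, the periostin gene Postn and the aggrecan-cleaving protease gene Adamts5 stayed below 1 RPKM in all 8 embryos.

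Fbln1 was the 1 member whose groups did not overlap, while all TKO-labelled values lay above all Control values in 4.47% of the 20714 genes above 0 and 7.55% of those tested. Fbln1 encodes fibulin-1, a glycoprotein of basement membranes and elastic fibres. It stood at 8.49, 7.65, 7.95 and 7.78 RPKM in TKO-labelled replicates 1 to 4, against 7.24, 5.79, 3.86 and 5.84 RPKM in Control replicates 1 to 4. All 4 TKO-labelled values lay above all 4 Control values, and Control replicate 3, the highest embryo for most members, was the lowest here. It averaged 7.97 ± 0.370 RPKM in TKO-labelled and 5.68 ± 1.39 RPKM in Control embryos (SD, n = 4 each), with 0.45 (95% confidence interval 0.11 to 0.79, limma adjusted p = 0.204) as its log2 difference, so it missed the threshold, with an exact permutation p of 0.0286, the smallest that 4 against 4 can give. Markers of parietal endoderm, an extraembryonic layer rich in basement membrane, had higher means in TKO-labelled embryos in 12 of 12 genes. Of the 10451 genes tested 6949 did. Among the 11 markers tested 10 stood at an unadjusted limma p under 0.05 with a higher mean, beside 13.9% of all genes tested. Past the threshold were 0, and 1 had all TKO-labelled values above all Control values. The markers summed to 263 to 873 RPKM in TKO-labelled and 148 to 295 RPKM in Control embryos. The part of parietal endoderm in the Fbln1 level was not tested.

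The fibrillar and type VI collagens, the main structural proteins of stromal matrix, were low. The 5 genes in the table were all below the filter, and their summed level ranged over 1.05 to 2.60 RPKM in TKO-labelled and 0.822 to 7.89 RPKM in Control embryos. Col1a2, a chain of type I collagen, stood at 0.372, 0.643, 1.15 and 0.827 RPKM in the TKO-labelled embryos and 0.682, 0.442, 2.82 and 1.43 RPKM in the Control embryos, in order of replicate. Col3a1, which makes type III collagen, stood at 0.145, 0.0380, 0.518 and 0.535 RPKM in TKO-labelled replicates 1 to 4, against 0.511, 0.0360, 2.27 and 1.45 RPKM in Control replicates 1 to 4. Control replicates 3 and 4 were the highest 2 embryos for both, and the groups overlapped (exact permutation p = 0.371 and 0.343). Col1a1 reached at most 0.435 RPKM in a TKO-labelled embryo and 1.70 RPKM in Control replicate 3, while Col6a1 and Col6a2 stayed below 1 RPKM throughout. All 5 had lower means in TKO-labelled embryos, though for Col6a2 by a log2 difference of only -0.03, which became 0.085 with a pseudocount of 0.1.

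The contractile and filament genes held the most abundant of the variable members. Cryab, the small heat-shock protein alpha-B crystallin, which binds desmin, stood at 17.6, 7.07, 54.4 and 30.2 RPKM in the TKO-labelled embryos and 56.1, 0.902, 129 and 87.7 RPKM in the Control embryos, in order of replicate. Its span reached from under 1 RPKM in Control replicate 2 to over 100 RPKM in Control replicate 3, a factor of 144, and it averaged 27.3 ± 20.4 RPKM in TKO-labelled and 68.5 ± 54.2 RPKM in Control embryos (SD, n = 4 each). Its log2 difference was -0.57 (95% confidence interval -3.11 to 1.97, limma adjusted p = 0.824), and without Control replicate 3 it was 0.085. Des encodes desmin, the intermediate filament of muscle that decidual cells also make. It stood at 2.25, 0.524, 9.24 and 6.02 RPKM in TKO-labelled replicates 1 to 4, against 8.50, 0.342, 25.3 and 12.3 RPKM in Control replicates 1 to 4. Replicate 2 of each group lay below 1 RPKM, and the log2 difference was -0.91 (95% confidence interval -2.77 to 0.94, limma adjusted p = 0.596). The smooth muscle actin gene Acta2 ranged over 0.0400 to 0.526 RPKM in TKO-labelled and 0 to 1.98 RPKM in Control embryos. Tagln, the actin-binding protein transgelin, and Myl9, a myosin light chain, were highest in Control replicate 3 too, at 6.21 and 6.28 RPKM. All 5 had lower means in TKO-labelled embryos, but without Control replicate 3 the log2 differences of Tagln and Myl9 were 0.062 and 0.25. Of 8 markers of the myometrium, the muscle wall of the uterus, 5 lay below 1 RPKM in every embryo, among them the smooth muscle myosin gene Myh11. The 8 summed to 4.73 to 7.69 RPKM in TKO-labelled and 5.73 to 8.66 RPKM in Control embryos, but Smtn alone made up 4.01 to 6.07 RPKM and 5.19 to 7.04 RPKM of this. Of the 8, 7 had lower means in TKO-labelled embryos and 5 were highest in Control replicate 3.

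The cell-surface genes had higher, not lower, means in TKO-labelled embryos. Gja1 encodes the gap junction protein connexin 43, which couples decidual cells and is also made by the embryo itself. It stood at 87.8, 123, 109 and 93.4 RPKM in the TKO-labelled embryos and 98.7, 87.6, 101 and 117 RPKM in the Control embryos, in order of replicate. The whole range was a factor of 1.41, Control replicate 2 with 1.32 RPKM of Prl8a2 still had 87.6 RPKM, and the log2 difference was 0.025 (95% confidence interval -0.27 to 0.32, limma adjusted p = 0.939). That sign too turned under median-ratio scaling (-0.060). Thy1, a surface glycoprotein of fibroblasts and lymphocytes, stood at 2.56, 1.05, 1.03 and 1.08 RPKM in TKO-labelled replicates 1 to 4, against 0.488, 0.809, 1.43 and 1.56 RPKM in Control replicates 1 to 4. Its highest value was that of TKO-labelled replicate 1, and its log2 difference was 0.22 (95% confidence interval -0.29 to 0.73, limma adjusted p = 0.647). Cdh11, a cadherin of mesenchyme, was highest at 1.72 RPKM in TKO-labelled replicate 2, and Pdgfrb, a growth factor receptor of pericytes, stayed at or below 0.299 RPKM. Of these 4 genes 0 of the 2 tested passed the threshold.

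The myeloid genes comprise S100a8 and S100a9, whose products pair into the calcium-binding complex calprotectin, and the lysozyme gene Lyz2. S100a8 stood at 2.06, 0.180, 18.7 and 2.60 RPKM in the TKO-labelled embryos and 12.0, 0, 26.8 and 11.9 RPKM in the Control embryos, in order of replicate. It was near 0 in replicate 2 of both groups and high in both replicates 3, the groups overlapped, and its log2 difference was -1.05 (95% confidence interval -3.30 to 1.21, limma adjusted p = 0.616). S100a9 stood at 0, 0, 2.04 and 0.697 RPKM in TKO-labelled replicates 1 to 4, against 1.49, 0.137, 1.97 and 1.43 RPKM in Control replicates 1 to 4, and the log2 difference was -0.50 (95% confidence interval -1.35 to 0.36, limma adjusted p = 0.526). Where both were above 0, S100a8 was 9.17 and 3.74 times S100a9 in TKO-labelled replicates 3 and 4, against 8.09, 13.6 and 8.34 times in Control replicates 1, 3 and 4. Lyz2 stood at 0, 0.0670, 1.59 and 2.25 RPKM in the TKO-labelled embryos and 0.286, 0.316, 1.21 and 0.329 RPKM in the Control embryos, in order of replicate, with its highest value in TKO-labelled replicate 4, and has a near-identical neighbour, Lyz1, with which reads can be shared. The highest 2 embryos for Lyz2 were thus TKO-labelled ones, unlike for S100a8, and the exact permutation p was 0.514.

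The stretches upstream of S100a8 and S100a9 are given because both genes had their highest 4 values in the same 4 embryos, TKO-labelled replicate 3 and Control replicates 1, 3 and 4, and because C/EBP factors, among them the product of the member Cebpb, are known to act on myeloid promoters. Sequences are RefSeq's on GRCm38.p6, not on the mm9 build of the deposited values, read 5′ to 3′ on the gene's own strand, and hold no base of an annotated exon. Capitals mark matches to the C/EBP pattern TTNNGNAA on either strand (TTNCNNAA when reversed). S100a8 lies at chr3:90668821-90668977 on the plus strand and S100a9 at chr3:90695722-90695971 on the minus strand.
S100a8: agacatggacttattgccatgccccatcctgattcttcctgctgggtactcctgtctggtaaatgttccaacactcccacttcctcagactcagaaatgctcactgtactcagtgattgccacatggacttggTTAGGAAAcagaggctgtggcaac
S100a9: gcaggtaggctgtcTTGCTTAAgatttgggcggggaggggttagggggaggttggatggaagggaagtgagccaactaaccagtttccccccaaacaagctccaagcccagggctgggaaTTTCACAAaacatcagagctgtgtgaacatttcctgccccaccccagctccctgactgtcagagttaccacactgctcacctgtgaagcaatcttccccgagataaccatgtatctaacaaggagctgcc
The S100a8 stretch holds 1 match and the S100a9 stretch 2. In windows of 250 bases before the annotated start, 36.8% of all 32851 promoters hold a match, and 7 of the 21 members found in the table of promoters do, so the pattern is common. The CArG box, the motif of the muscle regulator SRF, was found in the window of 1 of the 21 members, Myl9 (named after the search), against 1.47% of all promoters. A match is a description of letters and not a bound site.

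The groups were compared gene by gene with limma on log2(RPKM + 1). Of the 33 members 25 had a lower mean log2 level in TKO-labelled embryos, against 48.3% of the 20714 genes above 0, and among genes tested 15 of 20 members did, against 33.5%. The median log2 difference of the 33 was -0.31, against 0.0048 over the genes above 0 and 0.093 over the 10451 genes tested. These figures lean on the embryos and the scale: without Control replicate 3 the count was 20 and the median -0.055, while the median was -0.54 without Control replicate 2, -0.20 without TKO-labelled replicate 2 and -0.56 with a pseudocount of 0.1. By the limma test 0 of the 20 members above the filter passed an adjusted p of 0.05, beside 0.00957% of all genes tested. At an unadjusted p under 0.05 stood 2 with a lower mean, Igfbp3 and Cebpb, where 3.6% of all genes tested stood, and 1 with a higher mean, Fbln1, where 13.9% stood. Of the 33, 0 had all TKO-labelled values below all Control values, beside 1.71% of genes above 0 and 1.86% of those tested. The adjusted p of Igfbp3 was 0.215 and ranged from 0.159 to 0.458 over the alternatives, that of Cebpb from 0.0652 to 0.448 and that of Fbln1 from 0.139 to 0.432.

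**Figure D3:**
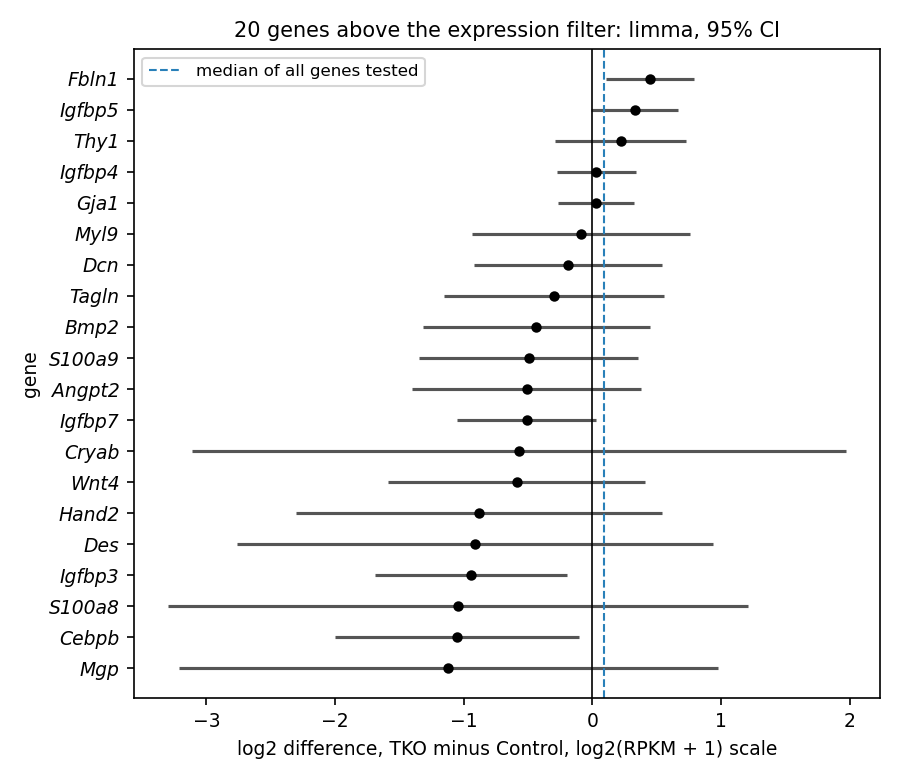
Log2 difference, TKO-labelled minus Control, of the 20 members above the expression filter, with its 95% confidence interval from limma, and a dashed line at 0.093, the median of all genes tested. The intervals of Mgp, S100a8, Cryab and Des span 3 or more log2 units, and those of Cebpb, Igfbp3 and Fbln1 do not include 0 although their adjusted p-values miss the threshold.

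Because Prl8a2 is made by decidual cells and is no member, each member was set against it over the 8 embryos. This relation was chosen after the values were seen, and the members were listed with earlier results of these data known. The p-values below are adjusted over these 33 relations alone. They therefore describe the relation and are no independent test of it. Of 33 relations, 17 passed a Benjamini-Hochberg adjusted p of 0.05 by exact permutation of Spearman's rho, and 11 passed for both rho and Pearson's r on log2(RPKM + 1). No such counts were made over all genes, so these have no share to be set against. A rho of at least 0.9 was found in 7 of the 33, or 21.2%, against 73 of 10450 genes tested, or 0.699%. Cryab had r = 0.97 (exact permutation p 1.98e-04, adjusted 0.00218) and rho = 0.86 (exact permutation p 0.0107, adjusted 0.0295), and r = 0.90 and rho = 0.66 without Control and TKO-labelled replicates 2, the embryos farthest from the median of Prl8a2. S100a8 had r = 0.97 and rho = 0.95 (exact permutation, adjusted 0.00218 and 0.0184), with r = 0.98 and rho = 0.89 without those embryos. Hand2 had r = 0.93 and rho = 0.90 (exact permutation, adjusted 0.00634 and 0.0213), with r = 0.91 and rho = 0.83 without them. Des, Mgp, Wnt4, Bmp2, Dcn, Angpt2, S100a9 and Tagln were the others that passed both, and for Tagln r was 0.57 and rho 0.66 without those embryos.

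For other members the relation missed the threshold. Gja1 had r = 0.37 and rho = 0.43 (exact permutation, adjusted 0.419 and 0.353), Igfbp4 r = 0.53 and rho = 0.45 (adjusted 0.229 and 0.327) and Fbln1 r = -0.22 and rho = -0.02 (adjusted 0.644 and 0.977). Without the same embryos r was 0.80 for Gja1, 0.91 for Igfbp4 and -0.58 for Fbln1, so these relations hang on which embryos are counted. Within the groups Prl8a2 ran from replicate 3 over 4 and 1 to 2 under either label. Of the 33 members 10 had exactly this order of embryos in both groups, 3 of 5 regulators and 4 of 5 contractile genes among them, against 0.957% of the genes tested and 0.811% of the genes above 0. Of the 13 other decidual genes set against Prl8a2, 1 had this order in both groups and 3 had a rho of at least 0.9. With 4 embryos a group, no correlation within a group is given.

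**Figure D4:**
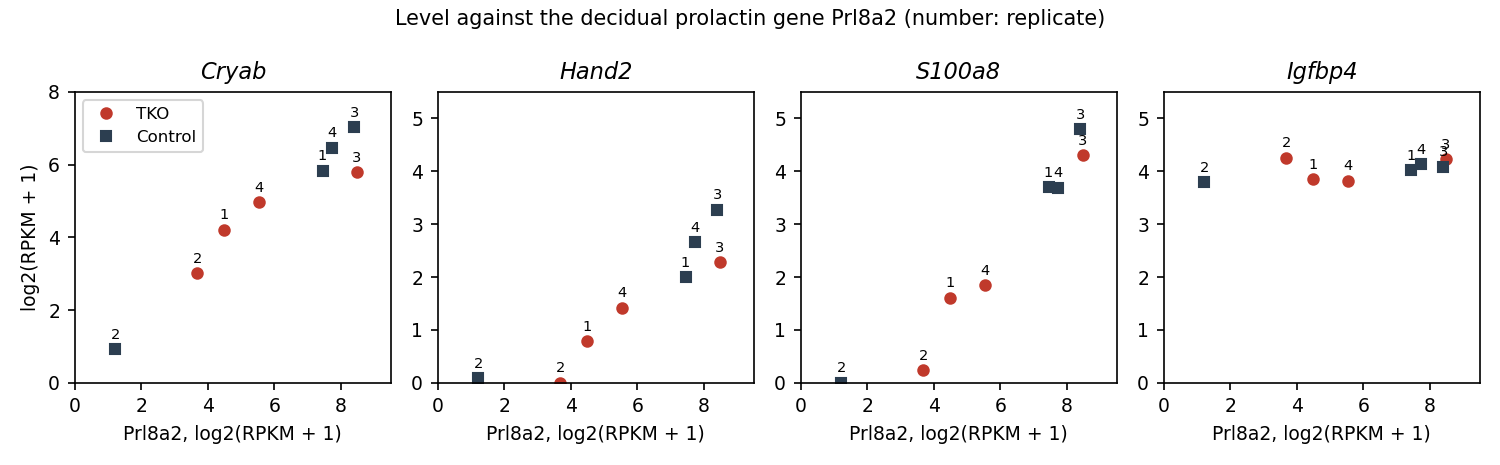
Log2(RPKM + 1) of Cryab, Hand2, S100a8 and Igfbp4 against that of the decidual prolactin gene Prl8a2 in 4 TKO-labelled embryos (circles) and 4 Control embryos (squares), numbered by replicate. Cryab, Hand2 and S100a8 climb with Prl8a2 across both groups, while Igfbp4 stays near 4 in every embryo.

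In the pair of embryos with nearly equal Prl8a2, 27 members were lower and 6 higher in the TKO-labelled one, while 33.7% of the genes tested and 48.1% of the genes above 0 were lower in it. The Control embryo of this pair, replicate 3, was the highest of all 8 embryos in 22 of the 33 members. For those members a lower value in the other embryo was given beforehand, so the count largely repeats that one. TKO-labelled replicate 3 had 354 RPKM of Prl8a2 and Control replicate 3 had 336 RPKM. Other decidual genes were not equal in this pair. Prl3c1 stood at 27.6 RPKM, against 46.6 RPKM, and Hoxa10 at 3.78 RPKM, against 12.5 RPKM in Control replicate 3. Foxo1 and Klf9 went the other way, at 8.33 and 12.3 RPKM, against 7.53 and 8.37 RPKM. The pair is thus matched on Prl8a2 only. Cryab stood at 54.4 RPKM in TKO-labelled replicate 3, against 129 RPKM in Control replicate 3, and Des at 9.24 RPKM, against 25.3 RPKM. The 6 higher ones were Igfbp4, Igfbp5, Fbln1, Gja1, S100a9 and Lyz2, of which S100a9 was nearly equal at 2.04 RPKM, against 1.97 RPKM. This is a comparison of 1 embryo with 1 and has no replicate check. With the Prl8a2 level as a covariate, an alternative added after seeing the data, 0 members passed the threshold, and the log2 differences were -0.61 for Hand2, -0.89 for Cebpb and -0.081 for Cryab. Of 8 giant cell and ectoplacental cone markers some differed between these embryos and some did not. The giant cell hormone gene Prl3d1 was at 108 RPKM in TKO-labelled replicate 3 and at 12.2 RPKM in Control replicate 3, and Plac1, a gene of the placental lineage, at 87.5 and 16.8 RPKM in the same order. Ascl2, a transcription factor of the ectoplacental cone, was at 16.6 and 15.3 RPKM, and Hand1, which giant cells need, at 3.39 and 3.16 RPKM. Tpbpa, a spongiotrophoblast gene, was at 0.0760 RPKM in TKO-labelled replicate 3 and at 0.584 RPKM in Control replicate 3. The part of these cells in the member levels was not tested.

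Markers of other maternal cells moved with the members in some embryos. The 9 markers of uterine natural killer cells summed to 0.0710 to 3.12 RPKM in TKO-labelled and 0.127 to 17.1 RPKM in Control embryos, and 8 of the 9 were highest in Control replicate 3. Gzma, a granule protease of these cells and the most abundant of them, stood at 0, 0, 0.835 and 0.194 RPKM in TKO-labelled replicates 1 to 4, against 0, 0, 7.48 and 3.88 RPKM in Control replicates 1 to 4. The 9 endothelial markers summed to 14.1 to 25.0 RPKM in TKO-labelled and 18.4 to 31.4 RPKM in Control embryos, of which Egfl7 alone made up 13.4 to 20.7 RPKM and 17.0 to 19.9 RPKM, and 7 of the 9 were highest in Control replicate 3. Of 15 macrophage and pan-leukocyte markers 9 lay below 1 RPKM in every embryo, the pan-leukocyte gene Ptprc among them, at no more than 0.246 RPKM. All 6 uterine epithelium markers lay below 1 RPKM. The embryonic globin genes Hbb-y, Hba-x and Hbb-bh1 were listed at 0 in all embryos. Of 10 erythroid genes listed only 6 had values, the adult globin genes not among them, so maternal blood was not checked. Visceral endoderm, a layer of the embryo, ran another way. Its 9 markers summed to 785 to 968 RPKM in TKO-labelled and 373 to 1264 RPKM in Control embryos, and lowest of all in Control replicate 3. By limma 0 genes of these lists passed the threshold. The part of each cell type in the member levels was not tested.

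**Figure D5:**
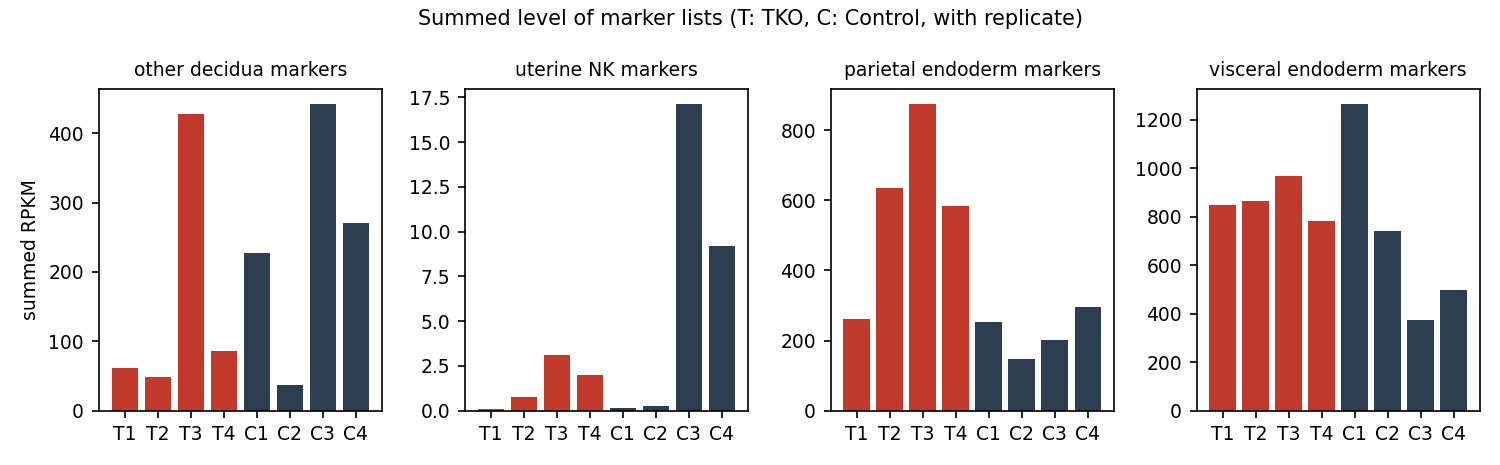
Summed RPKM of the markers of other decidual genes, uterine natural killer cells, parietal endoderm and visceral endoderm in each TKO-labelled embryo (T1 to T4, red) and Control embryo (C1 to C4, dark). Decidual sums are largest at 442 RPKM in C3 and 428 RPKM in T3, of which Prl8a2 alone makes up 336 and 354 RPKM. Natural killer sums are largest at 17.1 RPKM in C3, while parietal endoderm peaks in T3 and visceral endoderm is lowest in C3.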

How the data were processed

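Single whole embryos were lysed, their RNA was made into cDNA with a SMARTer kit and Nextera XT libraries, per the labels' protocols. The RPKM values were computed and deposited by the authors, 1 column per embryo. Counting with HTSeq (no version) on build mm9 is listed per the submitters' processing notes. Not given in the sources used here were the aligner, gene models, read denominator and strand use, so overlapping, antisense and near-identical genes can share reads. Read totals were estimated from the lowest RPKM values of genes with 1 GENCODE M21 transcript, as the total at which most came out at 1 to 3 whole reads within 2%. This gave 31.0% to 38.3% of them, against a median of 1.24% to 1.67% over the totals tried. The share was too low to recover whole reads, so count tests were left out.

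Groups and replicate numbers come from the sample titles. The test was limma (version 3.58.1, under R version 4.3.3) applied to log2(RPKM + 1) with a variance trend, over genes of at least 1 RPKM in at least 4 of 8 embryos, two-sided, with Benjamini-Hochberg adjustment over 10451 genes and a threshold of 0.05. The log2(RPKM + 1) scale understates changes of low genes. For the 13 members below the filter a two-sided exact permutation test over 70 assignments was used, whose smallest p is 0.0286. Relations to Prl8a2 used all 40320 orders of the embryos, two-sided. The labels describe single embryos, so p-values cover the spread between these 8. The limma fit was tested on simulated data, and the other steps were not. No pair of columns shared over 0.0692% of its values above 1 RPKM.

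Members, role groups and marker lists were chosen with earlier results of these data known, so lists are described by counts and medians without a test. The p-values of the relations to Prl8a2, adjusted over the members alone, are descriptive for the same reason. Values per embryo are given for Pgr, Hand2, Bmp2 and the myeloid genes, the 2 most abundant members of each role, members whose groups do not overlap, and the 3 smallest p-values in each direction. Of marker lists the 2 most abundant genes, the gene with the smallest p and genes at 0 may be named, and others were named after their values were seen. The alternatives were a pseudocount of 0.1, no filter, median-ratio scaling, the replicate number as a block, each embryo left out in turn and, added later, Prl8a2 as a covariate.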

Additional observations from a re-analysis of the deposited data

Results flagged for a closer look

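In 5 of 66 groups of 4 embryos, each a member under 1 label, 1 embryo lay far from the other 3 by Dixon's ratio at its 95% limit, where chance gives about 1 in 20. S100a8 was at 18.7 RPKM in TKO-labelled replicate 3, the other TKO-labelled embryos lying at 0.180 to 2.60 RPKM. Postn was at 0.286 RPKM in the same embryo, the others lying at 0.0260 to 0.0430 RPKM, which is 1 to a few reads. Thy1 was at 2.56 RPKM in TKO-labelled replicate 1, against 1.03 to 1.08 RPKM in the others. Myl9 was at 1.10 RPKM in TKO-labelled replicate 2, below the 2.88 to 3.05 RPKM of the others. Lyz2 was at 1.21 RPKM in Control replicate 3, against 0.286 to 0.329 RPKM in the other Control embryos.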

How the results depend on the processing

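Under all alternatives run 0 of the members tested were called. Of 403 values of single members 381 kept their direction and 22 changed sign, and where a test was run these missed the threshold. With 1 embryo left out, members below the filter had no test, so there only their sign was compared. The cause of the changes of sign was not tested. With a pseudocount of 0.1 the sign turned for Col6a2 (0.085) and Lyz2 (-0.11), under median-ratio scaling, which moved the median of all genes tested from 0.093 to 0.021, for Igfbp4 (-0.049) and Gja1 (-0.060), and with Prl8a2 as a covariate for Myl9 (0.020). With 1 embryo left out, log2 differences ranged from -0.13 to 0.088 for Col6a2, -0.041 to 0.10 for Igfbp4, -0.064 to 0.098 for Gja1, -0.34 to 0.25 for Myl9, -0.019 to 0.36 for Cdh11, -0.091 to 0.48 for Lyz2, -0.45 to 0.11 for Dcn, -1.95 to 0.085 for Cryab, -0.65 to 0.062 for Tagln and -0.033 to 0.10 for Tet2, and that of Tet1 from 0.83 to 1.05. The median SD of the 33 members was 0.75 in TKO-labelled and 1.07 in Control embryos with a pseudocount of 0.1, by construction of a scale that spreads low values. Over all genes 1 gene was called as reported, 0 with no filter, with the replicate block and with Prl8a2 as a covariate, and 0 to 40 with 1 embryo left out, the 40 without TKO-labelled replicate 1. Median-ratio scaling left 55.5% of the genes at an unadjusted p under 0.05 higher in TKO-labelled embryos, against 79.4% as reported. Deviations from the group means correlated at -0.00451, 0.402, 0.265 and -0.0207 for replicates 1 to 4. For embryos of unlike number they ran from -0.462 to 0.196. Whether the replicate numbers pair the embryos was not tested, and the labels name no pairing. The replicate block changed no call on a member. It lowered the limma adjusted p of Hand2 from 0.498 to 0.137, of Mgp from 0.560 to 0.133 and of Des from 0.596 to 0.159. That of Thy1 rose from 0.647 to 0.674. The medians and counts over 33 members need no filter, so that alternative gives no other median. At these depths differences among members below 0.1 RPKM were not detectable.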
